A study of Mus musculus with 12 samples.

Results

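The genes described here encode the proteins of the mitochondrial ribosome, measured in mouse quadriceps muscle after drug treatment, treadmill exercise or both. A gene was taken as a member when a probe set of the array carried its symbol alone and that symbol began with Mrpl or Mrps followed by a digit. This gave 74 of the 12393 genes with a symbol of their own on the array, 47 named Mrpl and 27 named Mrps, covered by 127 probe sets. Each gene was represented by its probe set with the highest mean log2 signal over the 12 arrays. Assigned by the particle in which the protein sits rather than by its name, 49 genes belong to the large subunit, Mrps30 and Mrps18a among them, and 25 to the small subunit, where Mrps36 was placed by its name. A counterpart in the bacterial ribosome was assigned to 44 of the proteins and not to the other 30. Among the forms of bacterial protein S18, Mrps18c was counted with the 44, and Mrps18a and Mrps18b with the 30.

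All mice were C57Bl/6J, and every group was treated for 4 weeks. Sedentary mice received vehicle (the vehicle group) or GW1516 at 5 mg/kg per day (the GW group), while the exercise group trained on a treadmill with vehicle and the combination group trained with GW1516. GW1516 is a synthetic agonist of the nuclear receptor PPARδ, which activates genes of fatty acid use in muscle. Each of the 3 arrays per group was hybridised with RNA pooled from 3 mice, so a value is already a mean over animals and the spread between arrays understates that between mice. Sex and age are not given in the sources used here, and the labels do not say how hard or how often the mice ran.

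The mitochondrial ribosome translates the messenger RNAs of mitochondrial DNA, which encode membrane subunits of the respiratory chain and of ATP synthase. Its ribosomal RNAs are transcribed inside the organelle, but all of its proteins are encoded in the nucleus, made in the cytosol and imported. The large subunit holds the peptidyl transferase centre, where peptide bonds form, and the small subunit decodes the messenger RNA. Skeletal muscle depends on this particle for respiratory capacity, and an increase of mitochondrial content is a known response to endurance training. The nuclear factors NRF1 and GABP, with their coactivator PGC-1α, are known regulators of nuclear genes for mitochondrial proteins.

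The genes lay on 17 chromosomes, with 11 of them on chromosome 11 and 0 on the mitochondrial chromosome. RefSeq promoter windows (build GRCm38.p6, 250 bases before to 50 bases after each start) were matched for 65 of the 74 genes and set beside those of 17492 protein-coding genes. The NRF1 motif, of which the capitals in the Mrpl45 and Mrpl12 stretches printed next are examples, was searched on both strands, as were the others. It was found in 12 of the 65 genes (18.5%) and in 7.17% of all protein-coding genes. The ETS motif CCGGAAG, to which GABP binds, was found in 24 genes (36.9%, against 12.9%), and the YY1 motif AAGATGGC in 11 (16.9%, against 3.57%). At least 1 of the 3 motifs was present in 40 genes (61.5%, against 21%). The windows of the ribosomal protein genes also held more CpG dinucleotides, with a median of 20.2 against 13, while their GC content was 58% against 56.3%. A match is a description of the letters in the window and was not tested as a binding site.

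The following stretches show these motifs close to the start of 5 genes and the interval shared by a divergent pair. Each is read from the RefSeq windows on the plus strand, 5′ to 3′, with the motif in capitals. Mrpl45 holds the NRF1 motif at 2 places (chr11:97315596-97315715), Mrpl12 at 1 (chr11:120484517-120484636), Mrps18a (chr17:46110884-46111003) and Mrpl34 (chr8:71464806-71464925) hold the ETS motif, and Mrpl36 (chr13:73330889-73331008) holds the YY1 motif in its reverse orientation. The last stretch lies between the starts of Mrps11 and Mrpl46 (chr7:78783090-78783130) and holds none of the 3 motifs.
Mrpl45: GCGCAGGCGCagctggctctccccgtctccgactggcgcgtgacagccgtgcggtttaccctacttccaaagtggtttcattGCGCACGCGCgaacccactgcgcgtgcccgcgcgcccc
Mrpl12: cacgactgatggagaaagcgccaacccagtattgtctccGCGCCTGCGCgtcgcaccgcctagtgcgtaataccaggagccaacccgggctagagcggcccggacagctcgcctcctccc
Mrps18a: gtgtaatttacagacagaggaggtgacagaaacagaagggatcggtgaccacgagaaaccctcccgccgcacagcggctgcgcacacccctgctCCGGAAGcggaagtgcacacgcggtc
Mrpl34: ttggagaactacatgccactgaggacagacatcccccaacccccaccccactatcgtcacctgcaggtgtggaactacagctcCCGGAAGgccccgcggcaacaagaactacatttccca
Mrpl36: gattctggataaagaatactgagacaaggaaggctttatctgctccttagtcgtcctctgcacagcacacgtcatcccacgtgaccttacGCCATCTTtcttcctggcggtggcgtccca
Mrps11-Mrpl46: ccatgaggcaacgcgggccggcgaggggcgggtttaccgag

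Many of these genes start back to back with a neighbour on the other strand. Such a divergent start within 1000 bases was found for 22 of the 65 genes (33.8%) and for 1483 of the 17492 protein-coding genes (8.48%). The starts of Mrps11 and Mrpl46, a small and a large subunit gene, are 42 bases apart. Several partners also serve the mitochondrion: Mrps12 faces Sars2, the mitochondrial seryl-tRNA synthetase, at 147 bases, Mrpl43 faces Twnk, the mitochondrial DNA helicase, at 116 bases, and Mrpl47 faces Ndufb5, a complex I subunit, at 308 bases. Mrpl49 faces Fau, a cytosolic ribosomal protein gene, at 192 bases. Of the 22 partners 14 were tested, and 0 passed the threshold in the comparisons of GW, exercise or the combination with vehicle.

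**Figure D1:**
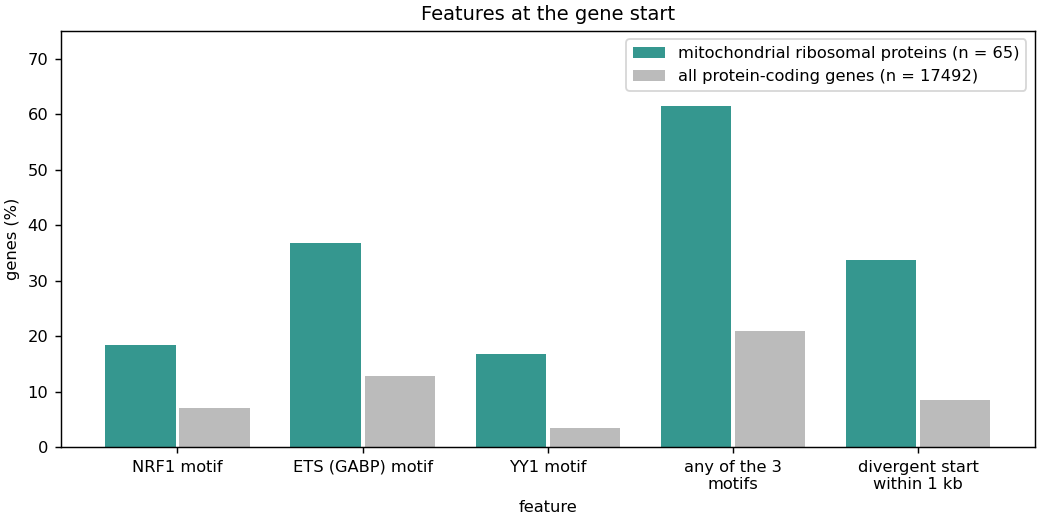
Share of genes, in percent, that hold each motif in the 300-base window at their start or have a divergent start within 1000 bases, for 65 mitochondrial ribosomal protein genes and 17492 protein-coding genes. The taller bar is that of the ribosomal protein genes for all 5 features, for example 36.9% against 12.9% for the ETS motif.

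The deposited signals were on a linear scale and were log2-transformed without further scaling. The median signal of the 12 arrays lay between 48.4 and 57.2, and all 74 genes passed the filter on low signal, with 112 of their 127 probe sets. The mean signal of a member over the arrays ran from 111 to 3703, with a median of 527. Mrps9 (111), Mrpl1 (135) and Mrpl33 (147) had the lowest values and Mrpl42 (3703), Mrpl51 (2074) and Mrpl23 (1488) the highest. Levels of different probe sets depend on the probes and were not set against each other. The lowest value of any member on a single array was 71.7, for Mrps9 in GW array 3, above the 95th percentile of 23.5 among 27 bacterial control probe sets. Within groups the median SD was 0.148 on the log2 scale for the members and 0.253 for all probe sets tested. The members were read on their probe sets of highest signal, while all probe sets tested reach down to a mean signal of 28.4. The part of signal in this difference was not tested.

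No member passed the threshold in any of 8 comparisons. Each comparison was tested with limma over 13575 probe sets, with Benjamini-Hochberg adjustment and a threshold of 0.05. In GW against vehicle 0 of 74 genes were called, beside 0.0958% of all probe sets tested. In exercise against vehicle the count was 0 beside 0.0147%, and in the combination against vehicle 0 beside 0.155%. It was 0 beside 0.162% for the combination against exercise and 0 beside 0% for the combination against GW. For the main effects, which average each treatment over both states of the other, 0 members were called beside 0.317% for GW and 0.0147% for exercise, and for the interaction 0 beside 0%. With so few calls on the whole array, a count of 0 among 74 genes is near the background. In whole muscle RNA, fewer cells of a type and less RNA per cell cannot be told apart.

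**Figure D2:**
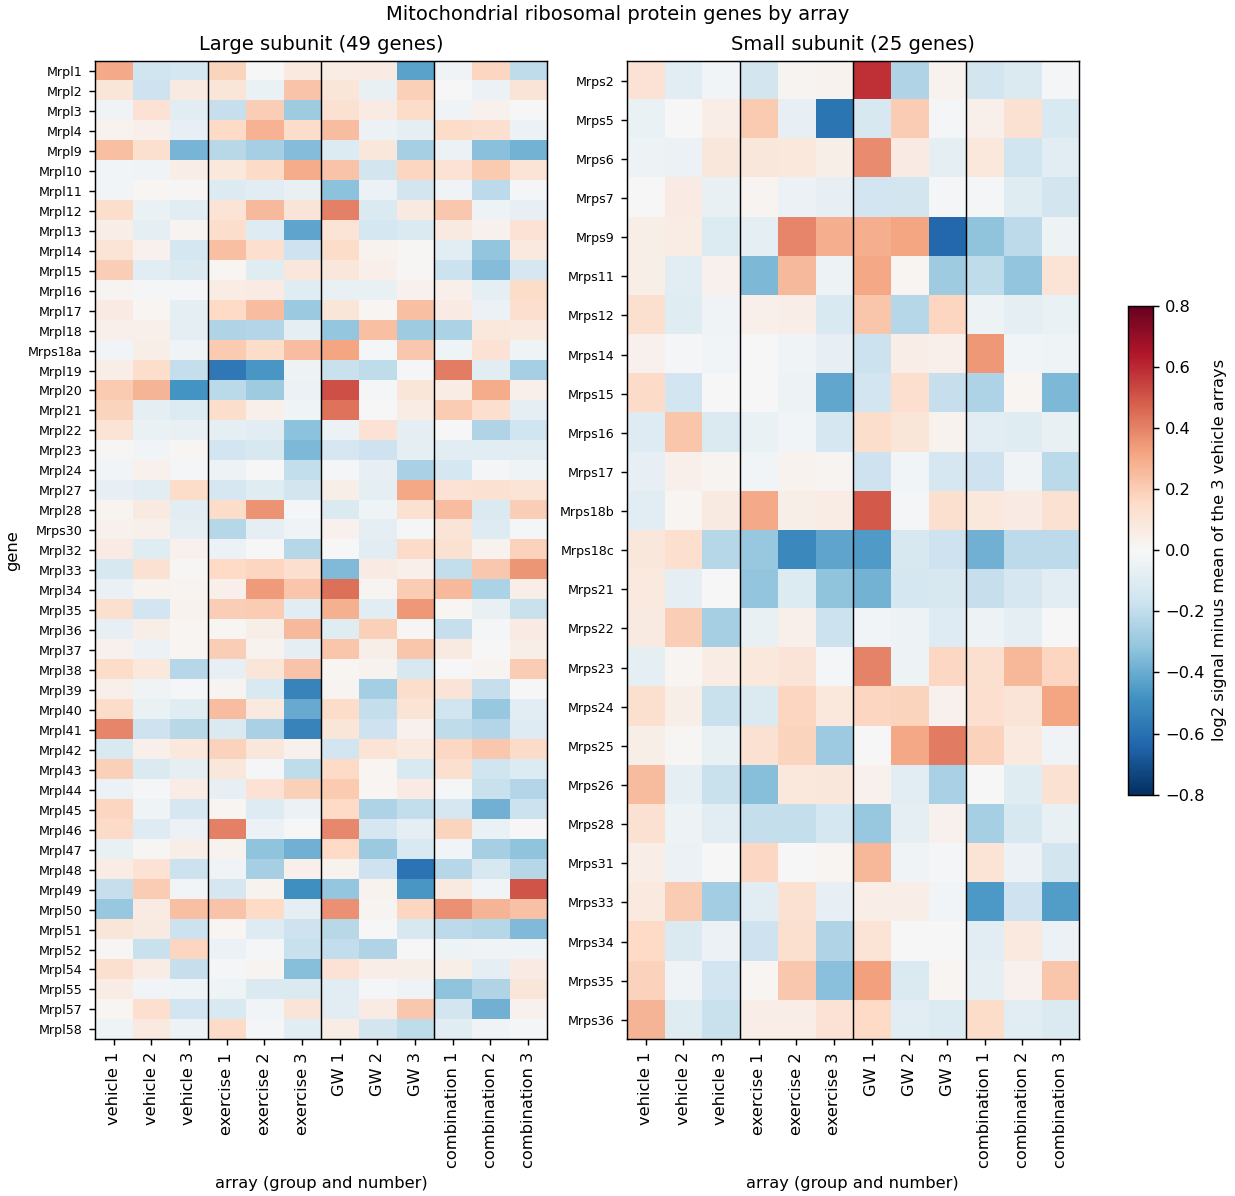
Log2 signal of each of the 74 genes in each of the 12 arrays, minus the gene's mean over the 3 vehicle arrays, for 49 large subunit genes (left) and 25 small subunit genes (right). Red is higher and blue lower. In vehicle array 1, 52 of the 74 genes are above the vehicle mean, and in combination array 2 23 are.

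The median standard error of a member's log2 fold change against vehicle was 0.126, beside 0.209 over all probe sets tested, which include weaker signals. In GW against vehicle the 95% interval of 73 of the 74 genes stayed below a 1.5-fold rise. The number was 73 in exercise against vehicle and 72 in the combination against vehicle. A 1.5-fold fall lay outside the interval for 73 genes in GW, 69 in exercise and 72 in the combination, and the lowest lower bounds were ratios of 0.630, 0.590 and 0.616. The median upper bound was 1.22-fold in GW and 1.18-fold in each of exercise and the combination. The highest upper bound among the members was 1.51-fold for GW, 1.64-fold for exercise and 1.52-fold for the combination. For the main effects of GW and of exercise, with 6 arrays against 6, the intervals of all 74 genes lay within 1.5-fold in both directions. These intervals are per gene and not adjusted for the number of genes.

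**Figure D3:**
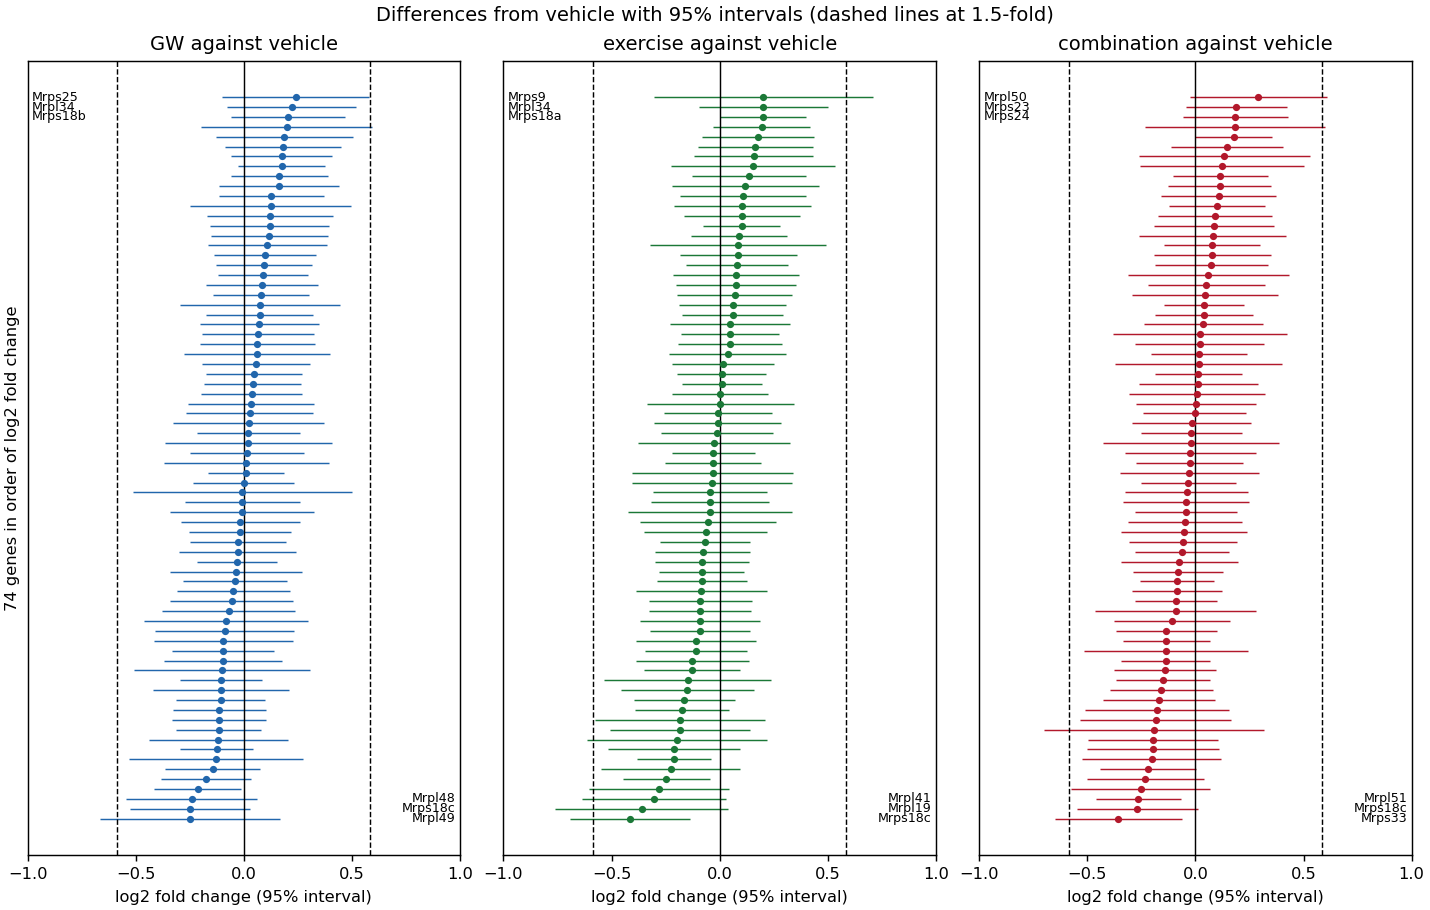
Log2 fold change against vehicle with its 95% interval for each of the 74 genes, in order of size within each comparison; dashed lines mark 1.5-fold. The 3 highest and 3 lowest genes are named, and in each panel the points lie on both sides of 0.

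In GW against vehicle, the median log2 fold change of the members was 0.01, beside -0.02 over the 7866 other genes with a probe set tested. It was above 0 for 40 of the 74 (54.1%, against 46.4% of the other genes). Of their 112 probe sets tested, 69 were above 0, against 49.8% of all probe sets. The large subunit had a median of 0.01 and the small subunit of 0.02. The members with the highest values were Mrps25 (0.24 ± 0.16, SE, adjusted p = 0.841), Mrpl34 (0.22 ± 0.14) and Mrps18b (0.20 ± 0.12). The lowest were Mrpl49 (-0.25 ± 0.20, adjusted p = 0.857), Mrps18c (-0.25 ± 0.13) and Mrpl48 (-0.24 ± 0.14). At an unadjusted p under 0.05 there was 1 member, Mrps21, beside 6.42% of all probe sets. In GW the summed signal of 5 endothelial markers (564 to 640 against 685 to 783) lay below every vehicle array. Of these markers Pecam1 went the other way, with 148.5, 105.1 and 131.6 in GW against 107.9, 91.7 and 104.9 in vehicle. The sum of 2 Schwann cell markers (263 to 274 against 310 to 337) was also below every vehicle array. The part of either sum in the members' values was not tested.

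Mrps21, a small subunit protein with a bacterial counterpart, read 1456, 1307 and 1385 in the vehicle arrays and 1064, 1255 and 1264 in the GW arrays. It read 1112, 1282 and 1105 in exercise and 1214, 1258 and 1300 in the combination. Every array of the 3 treated groups was below every vehicle array. Its log2 fold change was -0.21 ± 0.09 in GW (adjusted p = 0.757), -0.25 ± 0.09 in exercise (adjusted p = 0.378) and -0.14 ± 0.09 in the combination (adjusted p = 0.665). Groups without overlap were found for 4 members in GW against vehicle, and for 11% of all probe sets. All 3 comparisons use the same 3 vehicle arrays, so a high vehicle value enters each.

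In exercise against vehicle the members' median was -0.03, beside -0.00 for the other genes. Above 0 were 32 of 74 (43.2%, against 49.2% of the other genes) and 57 of their 112 probe sets tested (against 51.2% of all). The groups did not overlap for 12 members, 7 lower and 5 higher in exercise, beside 17.4% of all probe sets (8.56% lower and 8.83% higher). At an unadjusted p under 0.05 there were 3 members, all lower in exercise, beside 10.4% of all probe sets in either direction and 4.74% lower. They were Mrps18c and Mrps21 of the small subunit and 1 gene of the large subunit. Over all 112 tested probe sets of the members there were 6, 4 lower and 2 higher. Among the 74 genes the lowest value was that of Mrps18c, one of 3 mammalian forms of bacterial ribosomal protein S18. It read 491, 506 and 394 in vehicle and 374, 322 and 344 in exercise, with means of 464 ± 60.5 and 346 ± 25.8 (SD, n = 3). Every exercise array was below every vehicle array. The log2 fold change was -0.41 ± 0.13, a ratio of 0.750 with an interval of 0.618 to 0.910, and the adjusted p was 0.313. Mrps18c read 337, 422 and 410 in GW and 353, 398 and 398 in the combination, and both groups overlapped with vehicle.

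After Mrps18c, the lowest values in exercise were those of Mrpl19 (-0.36 ± 0.19, adjusted p = 0.519) and Mrpl41 (-0.30 ± 0.16, adjusted p = 0.515), both of the large subunit. Neither was among the members with an unadjusted p under 0.05. Another tested probe set of Mrpl19 had means of 107.8 in vehicle and 106.5 in exercise. For Mrpl41 another had 436.5 and 413.5, and in both cases the groups overlapped. The highest were Mrps9 (0.20 ± 0.24), Mrpl34 (0.20 ± 0.14) and Mrps18a (0.20 ± 0.09, adjusted p = 0.480). Mrps18a, another form of S18 that sits in the large subunit, read 1047, 1094 and 1042 in vehicle and 1225, 1172 and 1260 in exercise, without overlap. Mrps18c and Mrps18a stood at opposite ends of the ranking, and neither passed the threshold. Across the exercise arrays the summed signal of 8 muscle fibre markers was 103900 to 109600, above the 86610 to 87780 of vehicle. That of 2 Schwann cell markers was 271 to 292, below the 310 to 337 of vehicle, as it was in GW. The part of either sum in these values was not tested.

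In the combination against vehicle the members' median was -0.03, beside -0.01 for the other genes. Above 0 were 32 of 74 (43.2%, against 47.7% of the other genes) and 52 of their 112 probe sets tested (against 49.6% of all). At an unadjusted p under 0.05 there were 2 members, Mrps33 and Mrpl51, both lower, beside 9.98% of all probe sets in either direction and 4.5% lower. Over all 112 tested probe sets of the members there were 5, 2 lower and 3 higher. Mrps33, a small subunit protein without a bacterial counterpart, read 390, 426 and 304.5 in vehicle and 269, 329 and 272 in the combination. The ranges overlapped at vehicle array 3. Its log2 fold change was -0.36 ± 0.14 (adjusted p = 0.424). It read 349, 402 and 353 in exercise and 383, 384 and 363.5 in GW, and all 3 combination arrays were below these. The log2 fold change was -0.35 ± 0.14 against exercise (adjusted p = 0.473) and -0.38 ± 0.14 against GW (adjusted p = 0.728).

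Mrpl51, a large subunit protein, read 2406, 2363 and 1998 in vehicle and 1947, 1917 and 1758 in the combination, with no overlap. Its log2 fold change in this comparison was -0.26 ± 0.09 (adjusted p = 0.364). The highest values in this comparison were Mrpl50 (0.29 ± 0.15, adjusted p = 0.544), Mrps23 (0.19 ± 0.11) and Mrps24 (0.18 ± 0.11). The small subunit had a median of -0.05 and 8 of 25 genes above 0, and the large subunit a median of -0.00 with 24 of 49. The difference between the subunits was not tested. Groups did not overlap for 7 members, beside 16.8% of all probe sets. The summed signal of 5 fat cell markers was 1736 to 7069 in the combination and 1764 to 2493 in vehicle, while that of the 8 muscle fibre markers was 91890 to 103300, above every vehicle array. The part of either in the members' values was not tested.

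Among trained mice, the combination against exercise gave a median of -0.01. Above 0 were 35 of 74 members (47.3%, against 48.7% of the other genes) and 49 of their 112 probe sets (against 48.7% of all). The highest values were Mrpl19 (0.38 ± 0.19), Mrpl49 (0.38 ± 0.20) and Mrpl20 (0.32 ± 0.19), all of the large subunit, and the lowest were Mrps9 (-0.39 ± 0.24), Mrps33 and Mrpl15 (-0.22 ± 0.10). Their adjusted p lay between 0.473 and 0.660. Another tested probe set of Mrpl19 had means of 106.5 in exercise and 107.6 in the combination, with overlap. Mrpl27, a large subunit protein with a bacterial counterpart, read 798, 819 and 791 in exercise and 949, 953 and 947 in the combination. Every combination array was above every exercise array, and the estimate on the log2 scale was 0.24 ± 0.10 (adjusted p = 0.501). It read 840, 829 and 969 in vehicle and 907, 833 and 1085 in GW. The combination arrays lay within both of these ranges, and the exercise arrays below both. At an unadjusted p under 0.05 there were 2 members, beside 9.18%, and the groups did not overlap for 12, beside 15.8%.

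The combination against GW gave a median of -0.05, and 4 members had an unadjusted p under 0.05, beside 5.75%. Above 0 were 30 of 74 members (40.5%, against 51.9% of the other genes) and 47 of their 112 probe sets (against 50% of all). The highest value was that of Mrpl49 (0.43 ± 0.20, adjusted p = 0.854), followed by Mrpl33 (0.21 ± 0.18) and Mrpl42 (0.17 ± 0.08). Mrpl49 read 143, 181 and 128 in GW and 186, 174 and 250.2 in the combination, and the groups overlapped. After Mrps33, the lowest were Mrpl15 (-0.27 ± 0.10) and Mrpl35 (-0.25 ± 0.13). The groups did not overlap for 6 members, beside 10.5% of all probe sets. Mrpl15 was measured by a probe set whose probes can bind related sequences, so its value is uncertain.

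**Figure D4:**
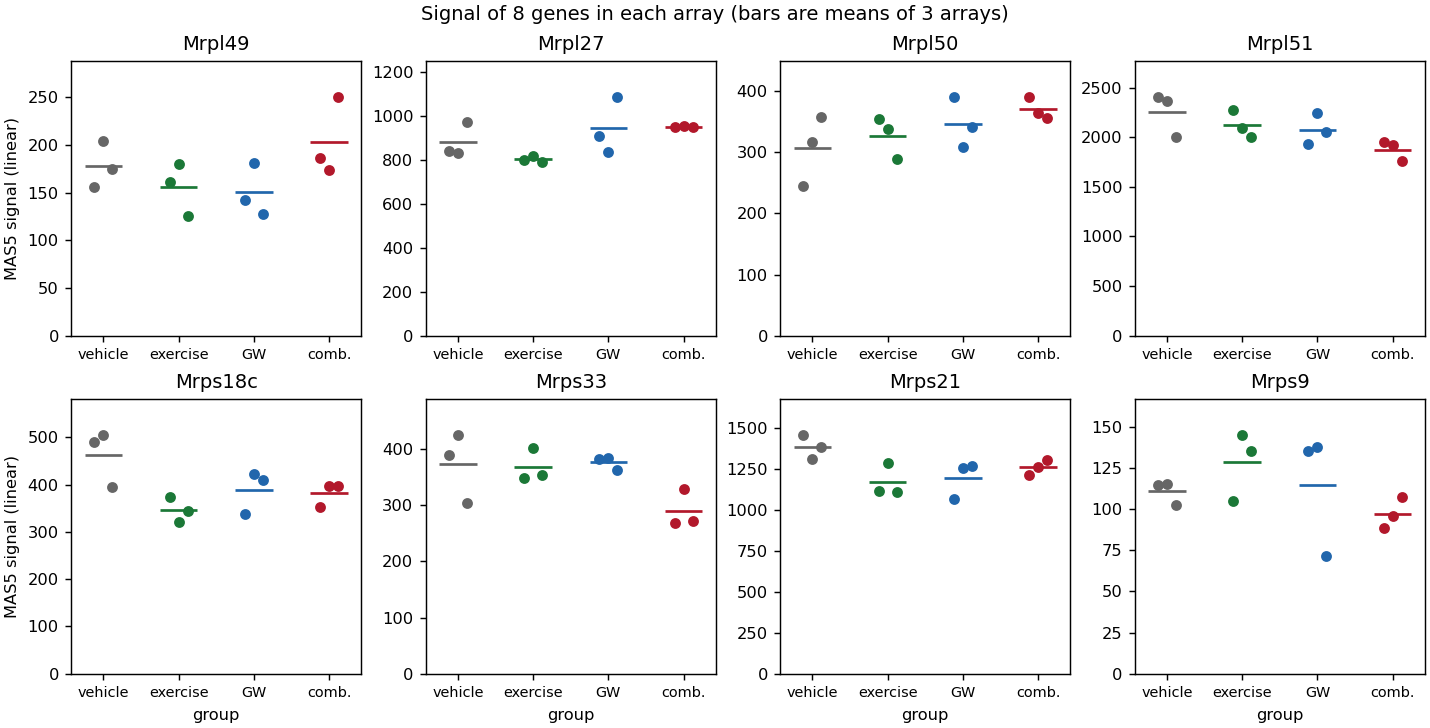
Signal, on a linear scale from 0, of 8 member genes in each of the 12 arrays by group; points are arrays and bars are means of 3. Mrps18c is lower in all 3 exercise arrays than in the vehicle arrays, while Mrpl27 is higher in all 3 combination arrays than in the exercise arrays.

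The interaction asks whether the drug's effect in trained mice differed from that in sedentary mice. Its median over the members was -0.00, and 4 members had an unadjusted p under 0.05, beside 6.79% of all probe sets. The highest values were Mrpl49 (0.63 ± 0.28, adjusted p = 0.727), Mrpl19 (0.51 ± 0.27) and Mrps18c (0.39 ± 0.18), and the lowest were Mrpl34 (-0.40 ± 0.20), Mrps9 (-0.39 ± 0.34) and Mrps33 (-0.38 ± 0.19). This comparison is the least precise, with a median standard error of 0.178. The interval lay within 1.5-fold in both directions for 45 of the 74 genes. Another tested probe set of Mrpl19 had means of 107.8 in vehicle, 106.5 in exercise, 105.1 in GW and 107.6 in the combination.

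The GW main effect had a median of -0.00. Above 0 were 35 of 74 members (47.3%, against 47.2% of the other genes) and 56 of their 112 probe sets (against 49.3% of all). No member had main-effect groups without overlap, beside 0.611% of all probe sets for GW and 0.376% for exercise. The highest GW values were Mrpl20 (0.26 ± 0.13), Mrpl50 (0.19 ± 0.11) and Mrpl27 (0.17 ± 0.07, adjusted p = 0.566), and its lowest Mrps9 (-0.20 ± 0.17), Mrpl48 (-0.18 ± 0.10) and Mrps33 (-0.16 ± 0.10). The exercise main effect had a median of -0.03, with 27 of 74 members above 0 (36.5%, against 50.3% of the other genes). It was above 0 for 47 of their 112 probe sets, against 50.7% of all probe sets. Its highest values were Mrpl33 (0.18 ± 0.13), Mrpl28 (0.14 ± 0.09) and Mrpl42 (0.13 ± 0.06), and its lowest Mrpl41 (-0.24 ± 0.11), Mrpl9 (-0.22 ± 0.11) and Mrps18c (-0.22 ± 0.09, adjusted p = 0.520). At an unadjusted p under 0.05 there were 2 members for GW, beside 8.37%, and 3 for exercise, beside 9.09%.

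Some members are of interest for their known roles. Mrpl12, which also binds the mitochondrial RNA polymerase and whose start is shown above with its NRF1 motif, read 873, 761 and 745 in vehicle and 852, 949 and 849 in exercise. It read 1048, 730 and 830 in GW and 918, 769 and 755 in the combination. All 3 treated groups overlapped with vehicle, and its log2 fold changes were 0.16 ± 0.13 in exercise (interval -0.12 to 0.43), 0.12 ± 0.13 in GW and 0.04 ± 0.13 in the combination. Mrps12, the homologue of the bacterial decoding protein S12, had 0.06 in GW, -0.01 in exercise and -0.06 in the combination. Mrpl11, of the factor-binding stalk base, had -0.18, -0.08 and -0.09. Mrps36, since described as a component of the 2-oxoglutarate dehydrogenase complex, had -0.02, 0.07 and -0.02.

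Divergent pairs are given side by side. The log2 fold change of Sars2 was 0.07 in GW, 0.38 ± 0.22 in exercise and 0.12 in the combination, beside the values of Mrps12 just given. Mrpl46 had 0.06, 0.12 and 0.04 and Mrps11 0.01, -0.05 and -0.14 in the same order. Over the 14 partners tested, values lay between -0.29 and 0.50.

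Array by array, the gene group varied within groups. The median deviation of the 74 genes from their vehicle mean was 0.05, 0.01 and -0.05 in the vehicle arrays and 0.01, 0.02 and -0.07 in the exercise arrays. It was 0.07, -0.02 and 0.01 in the GW arrays and -0.01, -0.07 and -0.03 in the combination arrays. The combination was the only group with all 3 medians below 0, and 1 of them lay below the lowest vehicle array. In vehicle array 1, 52 of the 74 genes were above the vehicle mean, and in vehicle array 3 only 25 were. The median over all other genes stayed between -0.0196 and 0.0173 on every array.

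**Figure D5:**
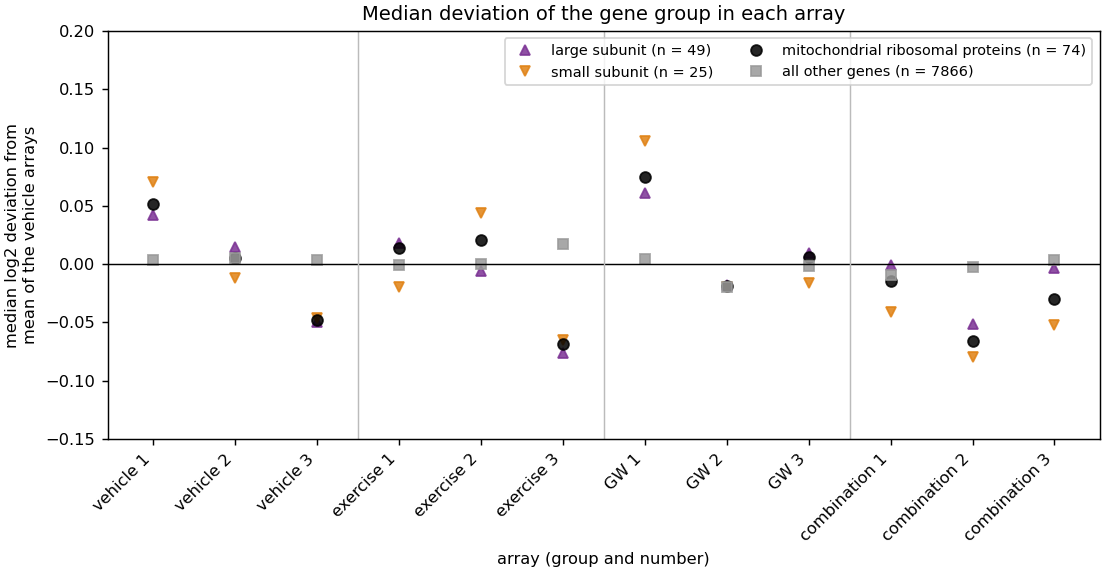
Median log2 deviation from the vehicle mean in each array, for all 74 members, the large and small subunit genes and the 7866 other genes. The members' medians in vehicle arrays 1 and 3 are 0.05 and -0.05.

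Other genes of mitochondrial translation, taken from fixed lists, had 0 calls in all 8 comparisons. The list of translation factors, which also held Mtfmt, Oxa1l, Lrpprc, Slirp, Mtg1 and Mtg2, had 11 of 18 genes tested. Its medians were -0.01 in GW, 0.09 in exercise and -0.07 in the combination. Tufm, the elongation factor that brings aminoacyl-tRNA to the ribosome, had 0.39 ± 0.17 in GW (adjusted p = 0.759), and Mtif2, the initiation factor, -0.47 ± 0.21 in exercise (adjusted p = 0.468). Of the list of mitochondrial aminoacyl-tRNA synthetases, which also held Qrsl1, Gatb and Gatc, 13 of 22 were tested, with medians of 0.06, 0.05 and -0.06. Mitoribosomal proteins with other names, Dap3, Ptcd3, Chchd1 and Gadd45gip1, had medians of 0.12, -0.03 and -0.01.

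Assembly and ribosomal RNA modification genes had 15 of 20 tested and medians of 0.08, -0.02 and 0.10. Dhx30, an RNA helicase of mitochondrial RNA granules, had 0.36 ± 0.13 in GW (adjusted p = 0.684) and an interaction of -0.71 ± 0.18 (adjusted p = 0.458). Mettl17, an assembly factor of the small subunit, had 0.58 ± 0.21 in exercise (adjusted p = 0.367). Of the genes of mitochondrial DNA upkeep, transcription and their nuclear regulators 16 of 17 were tested, with medians of -0.01, 0.01 and -0.07. In GW the smallest p of this list was that of Ppargc1b, a coactivator related to PGC-1α, with -0.30 ± 0.16 (adjusted p = 0.785). Nrf1 had 0.46 ± 0.26 in GW (adjusted p = 0.814) and 0.45 ± 0.26 in exercise (adjusted p = 0.560).

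Cytosolic ribosomal proteins, which build the ribosomes outside the mitochondrion, had 44 of 48 genes tested, 0 calls in the 8 comparisons, and medians of 0.01, -0.02 and 0.02. The single values ran from -0.93 to 0.37 in GW, -0.44 to 0.19 in exercise and -0.79 to 0.17 in the combination. Those with the smallest p were Rpl22 at 0.37 ± 0.10 in GW (adjusted p = 0.374) and Rps4x at -0.27 ± 0.09 in exercise (adjusted p = 0.316). The lowest value in GW was that of Rps27, which read 93.9, 39.3 and 163 in vehicle and 60.3, 35.6 and 40 in GW, with overlap. Genes encoded by mitochondrial DNA, whose messages the mitochondrial ribosome translates, were not analysed here.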

How the data were processed

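The authors deposited 1 table of signal intensities on a linear scale for 12 arrays, made with MAS5 per the submitters' processing notes, which state no version here. With 2% of values trimmed at either end, the array means lay near 200.1. Of 22626 probe sets other than the 64 controls, those in the top 60% of mean log2 signal (above 28.4) were kept, 13575 in all. In R 4.3.3 with limma 3.58.1, a model of the 4 groups was fitted to all 12 arrays on log2 values without a pseudocount (8 residual degrees of freedom, variances with an intensity trend). P-values are two-sided, adjusted by Benjamini-Hochberg over all of these. The script was tested on simulated data. With 3 arrays per group the number of arrays sets the precision; nothing in the labels says that the pools of a group came from separate cohorts.

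Gene symbols came from the array annotation; all 74 members matched RefSeq by gene identifier. A further 3 probe sets carry a member-like symbol together with another gene and were left out. Named in the text are the 3 highest and 3 lowest members of each comparison, the 3 with the highest and lowest signal, Mrpl11, Mrpl12, Mrps12 and Mrps36, and, for the other lists, examples from the members with the smallest p in a comparison. Mrps21, Mrpl27, Rps27 and the stretches of sequence were chosen after their values or motifs were seen, as were the motifs. The members and lists were chosen with earlier results of these data known. Arrays with the same number deviated together weakly at most, with correlations up to 0.1, so the main fit did not use the numbers as pairs. Between vehicle and GW, same-numbered arrays correlated at 0.076, 0.1 and 0.0628, and all different-numbered ones were below 0. Deviations from a group mean sum to 0 over its arrays, so these correlations are not independent of each other. Alternatives covered normalization, filter, pseudocount, variance prior, array weights, probe set choice, a replicate block, the arrays fitted and leaving out each array.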

Additional observations from a re-analysis of the deposited data

How the results depend on the processing

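The count of members called was 0 under all alternatives run, 24 for each comparison of 2 groups and 23 for the interaction and the main effects. The lowest adjusted p of any member over them was 0.0974 in exercise against vehicle, 0.126 in the combination against vehicle and 0.337 in GW against vehicle. With the replicate block, the counts were again 0, with a lowest adjusted p of 0.769 in GW and 0.341 in exercise, and it changed no call; same-numbered arrays correlated between -0.0484 and 0.1. Leaving out each array in turn, the members' median ranged from -0.0278 to 0.0474 in GW, from -0.0583 to 0.011 in exercise, from -0.0672 to -0.00243 in the combination against vehicle and from -0.0609 to 0.0337 for the interaction, where its lowest values were without exercise replicate 3 (-0.0609) and vehicle replicate 1 (-0.0533). The values followed were the 3 highest and 3 lowest of each comparison, with Mrpl11, Mrpl12, Mrps12 and Mrps36 added against vehicle. Of these values 1339 kept their direction and 23 turned. Most were picked for lying far from 0, so the count does not show how stable directions are in general. Those that turned were uncalled values of Mrpl12, Mrps12 and Mrps36, between -0.06 and 0.12 in the comparisons concerned. The cause was not tested. Under quantile normalization and cyclic loess, Mrps36 became 0.00968 and 0.0071 in GW and 0.00188 and 0.00838 in the combination, and Mrps12 0.0174 and 0.0185 in exercise. With array weights Mrps12 was 0.0489 in exercise and Mrps36 0.0245 in the combination. Leaving out single arrays, Mrps36 ranged from -0.105 to 0.121 in GW, -0.0141 to 0.212 in exercise and -0.107 to 0.119 in the combination. Mrps12 ranged from -0.0283 to 0.196, -0.0558 to 0.0551 and -0.103 to 0.00752, and Mrpl12 from -0.0227 to 0.238 in GW and -0.0543 to 0.107 in the combination. Directions of these 3 genes are therefore not settled. Signals near the filter, under about 30, are the least precise.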

Other observations

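More than 1 probe set was tested for 27 members. In 127 of the 216 pairs of such a gene and a comparison, its probe sets differed in sign, counting values near 0 too. Directions of these genes therefore depend on the probe set chosen. Some probe sets gave values unlike the one used for the gene. The following were chosen after their values were seen. A second probe set of Mrpl51 with a mean signal of 38.1 read 21.7, 27.2 and 25.4 in vehicle and 67.9, 62.5 and 69.5 in the combination. All 3 combination arrays were above vehicle (log2 fold change 1.43 ± 0.37, limma adjusted p = 0.179), while the probe set used for the gene, with a mean signal of 2074, had -0.26 ± 0.09. Another Mrpl51 probe set had 0.52 ± 0.18 in exercise (adjusted p = 0.343), where the one used had -0.08 ± 0.09. A second Mrpl44 probe set with a mean signal of 335, whose probes can bind related sequences, read 413, 364 and 346 in vehicle and 239, 324 and 267 in exercise, without overlap (-0.44 ± 0.14, adjusted p = 0.305), where the one used had 0.08 ± 0.11. A second Mrpl17 probe set with a mean signal of 28.9 had 1.79 ± 0.64 in exercise (adjusted p = 0.361), with vehicle arrays at 16.5, 4.20 and 39.3. None of these passed the threshold, and which transcripts the probe sets read was not analysed here.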
